A study of Mus musculus with 11 samples.

Results

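A set of 9 genes of signalling downstream of G protein-coupled receptors is described here in mouse corneas under desiccating stress. They were taken as the rows of both deposited tables whose symbol is GNAS, GNAQ, GNB1, PLCB1, PRKCA, PRKCB, RAPGEF2, PIK3C2G or CREB1 (Gnas, Gnaq, Gnb1, Plcb1, Prkca, Prkcb, Rapgef2, Pik3c2g and Creb1 in mouse spelling), and all 9 were found among the 248 genes of the NanoString mouse Inflammation panel. All 11 samples were total RNA of the cornea, labelled as corneal epithelia, of female C57BL/6 mice. Every mouse was kept for 5 days in drafty air of low humidity with scopolamine, an inhibitor of tear secretion, in the drinking water, so the vehicle samples carry the stress too and unstressed corneas are not analysed here. The eye drops, held vehicle (3 samples), the pan-Trk agonist pan at 10 µM (4 samples) or the TrkC agonist C1 at 10 µM (4 samples). Trk receptors are the tyrosine kinase receptors of the neurotrophins.

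The labels give 2 ages that do not agree. One label gives 3 months for every sample, and the other gives 2-3 months for the vehicle samples and for pan replicates 1 to 3 but 22-24 months for pan replicate 4 and for all 4 C1 samples. The study's methods give a single range of weeks, all young mice, which the label of 22-24 months does not match. The label of 3 months also lies above that range, though by far less. If the label of 22-24 months were right, age and C1 treatment could be told apart only through pan replicate 4. The samples with that label also had the highest total probe counts of all, whether or not the label is right. The labels do not say whether a sample is 1 mouse or a pool, so p-values measure only the spread between these samples. The panel has no defining marker of corneal epithelium, so the labelled cell type could not be checked.

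G protein-coupled receptors act through heterotrimeric G proteins, in which the nucleotide-binding alpha subunit decides which enzyme is reached. Gs alpha, encoded by Gnas, stimulates adenylyl cyclase and raises cAMP, which is how the melanocortin receptors and the prostaglandin E receptor EP4 act. Gq alpha, encoded by Gnaq, activates phospholipase C beta, which releases calcium from internal stores and yields diacylglycerol, the activator of conventional protein kinase C. Several of these branches end in phosphorylation of Creb1, a transcription factor that binds cAMP-responsive promoters. Trk receptors reach Creb1 through Ras, ERK and its downstream kinases. Much of this signalling runs through phosphorylation and second messengers, which a panel of transcripts does not measure.

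Creb1 protein binds the cAMP response element TGACGTCA or its core TGACG, so the RefSeq promoter windows of these genes (GRCm38.p6, from 250 bases before to 50 after each annotated start) were searched on both strands. The full element was in 0 of the 14 windows of the 9 genes, against 1.79% of all 32851 windows. The core, which also lies within each full element, was in 4 of the 14 windows and in 2 of the 9 genes, Gnas and Gnb1, against 20.8% of all windows. The Gnas windows that start at chr2:174327499 and chr2:174327518 overlap and share the same upstream match, so 1 match is counted in both. A share per gene, to set beside the 2 of 9, was not computed. The upstream parts of 1 window of each gene are shown because these are the only genes of the set with the core in a listed window. Capitals mark TGACG or its reverse complement CGTCA. The Gnas stretch lies at chr2:174329756-174330005 and the Gnb1 stretch at chr4:155491111-155491360, both on the plus strand.
Gnas: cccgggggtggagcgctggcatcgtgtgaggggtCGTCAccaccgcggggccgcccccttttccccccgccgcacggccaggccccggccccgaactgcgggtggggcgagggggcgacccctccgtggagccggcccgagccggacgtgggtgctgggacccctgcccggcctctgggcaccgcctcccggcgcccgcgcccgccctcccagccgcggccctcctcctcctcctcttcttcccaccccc
Gnb1: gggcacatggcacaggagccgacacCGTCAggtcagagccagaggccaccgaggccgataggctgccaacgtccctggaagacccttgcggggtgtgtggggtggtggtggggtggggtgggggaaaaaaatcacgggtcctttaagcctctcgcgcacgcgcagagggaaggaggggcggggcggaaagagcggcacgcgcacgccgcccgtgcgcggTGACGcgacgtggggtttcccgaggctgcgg
The Gnas stretch holds 1 match and the Gnb1 stretch holds 2. A match is a description of the letters, not a measured binding site.

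Each deposited value is the log2 of a count normalized by the authors to housekeeping probes, and values below are given as normalized counts. The values of every sample were whole multiples of one step, from which the number of probe counts was recovered. Recovered totals were 91955 to 133098 for vehicle, 64156 to 646446 for pan and 165828 to 525997 for C1. Every C1 total was above every vehicle total, so C1 treatment and depth cannot be told apart in that comparison. Pan replicates 1 and 3 had the lowest totals of all samples and pan replicate 4 the highest, and 0 values fell below 1 count, so a count of 1 may also stand for none. In the same groups, the 9 macrophage and myeloid markers of the panel summed to 376 to 465, 232 to 385 and 413 to 556 normalized counts, and the 4 T cell markers to 36.9 to 42.0, 19.5 to 24.4 and 19.3 to 42.3. Their part in the results was not tested. In bulk RNA, fewer cells of a type and less RNA per cell cannot be told apart. Since probes differ in efficiency, the level of one gene was not ranked against that of another.

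Tests were made with limma across all 248 genes, with Benjamini-Hochberg adjusted p-values. In pan against vehicle, 0 of the 9 genes passed an adjusted p of 0.05, against 2.02% of the panel, 0 passed an unadjusted p of 0.05, against 12.5%, and 0 had groups that did not overlap, against 10.9%. In C1 against vehicle, the counts were again 0 of 9 by each rule, against 0.0%, 10.5% and 10.1% of the panel. In C1 against pan, 1 of the 9 genes passed by each rule, against 0.403%, 15.3% and 8.06%, and it was Pik3c2g each time. The median log2 fold change of the 9 genes was -0.046, -0.0010 and 0.024 in these comparisons, beside -0.20, -0.019 and 0.23 over the whole panel. Their median absolute log2 fold change was 0.22, 0.13 and 0.24, beside 0.32, 0.22 and 0.33 over the panel. With 3 against 4 samples an exact two-sided permutation test of a single gene cannot go below p = 0.0571, and with 4 against 4 not below 0.0286.

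**Figure D1:**
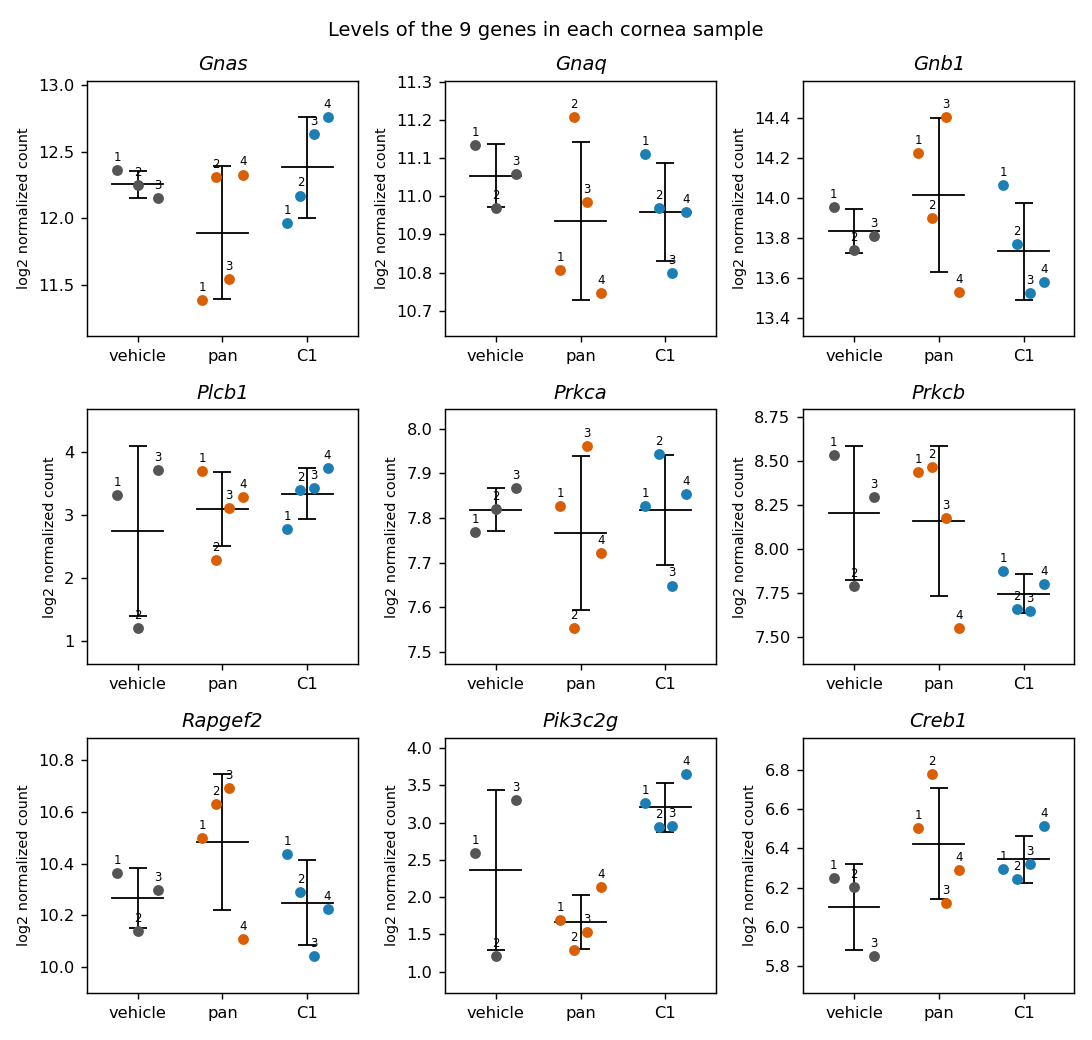
Log2 normalized count (y axis, a separate range for each gene) of the 9 genes in the vehicle, pan and C1 samples. Each point is 1 sample with its replicate number, the long line is the group mean and the bar is ± 1 SD (n = 3, 4 and 4). The C1 points of Pik3c2g lie above all 4 pan points, and in every other gene the C1 and pan points overlap.

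Among the G protein subunits, Gnas varied most. It was at 5255, 4863 and 4562 normalized counts in the vehicle samples. In pan replicates 1 to 4 it was at 2684, 5076, 2985 and 5144. In C1 replicates 1 to 4 it was at 3995, 4611, 6354 and 6922. Pan replicates 1 and 3, with the lowest totals, lay below every vehicle and C1 sample, while pan replicates 2 and 4 lay within the vehicle range. C1 replicates 3 and 4 lay above all other samples, so the C1 group reached beyond the vehicle range on both sides. The log2 fold change was -0.36 ± 0.30 (SE) in pan against vehicle (limma adjusted p = 0.640) and 0.13 ± 0.22 in C1 against vehicle (limma adjusted p = 0.860). In C1 against pan it was 0.49 ± 0.30 (limma adjusted p = 0.459), with an interval from -0.19 to 1.17. The difference of pan from vehicle rested on those low samples, since without pan replicates 1 and 3 it was 0.065.

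Gnaq differed little between samples. It was at 2248, 2005 and 2131 normalized counts with vehicle, at 1792, 2365, 2026 and 1717 with pan and at 2213, 2005, 1781 and 1991 with C1. Every group overlapped the others. Its log2 fold change was -0.12 ± 0.22 (SE) in pan against vehicle and -0.094 ± 0.13 in C1 against vehicle (limma adjusted p = 0.893 and 0.834). The 95% interval of C1 against vehicle ran from 0.757-fold to 1.16-fold, and that of C1 against pan from 0.762-fold to 1.36-fold.

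Gnb1 encodes a beta subunit, which holds the alpha subunit in its resting complex and, once freed with gamma, signals to enzymes and ion channels of its own. It was at 15856, 13684 and 14352 normalized counts with vehicle. The pan replicates had 19144, 15274, 21647 and 11813, so replicates 1 and 3 were the highest of all samples and replicate 4 was below the vehicle range. The C1 replicates had 17102, 13951, 11780 and 12243, on both sides of vehicle. The log2 fold change was 0.18 ± 0.27 (SE) in pan against vehicle, -0.10 ± 0.17 in C1 against vehicle and -0.28 ± 0.24 in C1 against pan (limma adjusted p = 0.842, 0.860 and 0.602). Without pan replicates 1 and 3, the difference of pan from vehicle was -0.12 and that of C1 from pan 0.020, so both turned direction.

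Gnas and Gnb1 stood on opposite sides of vehicle in the samples farthest from it. Relative to the vehicle mean on the log2 scale, pan replicate 1 was at -0.86 for Gnas and 0.39 for Gnb1, and pan replicate 3 at -0.71 and 0.57. C1 replicate 3 was at 0.38 for Gnas and -0.31 for Gnb1, and C1 replicate 4 at 0.50 and -0.25. The former samples had the 2 lowest total counts and the latter 2 of the 3 highest. Pan replicate 4, with the highest total, was at 0.074 for Gnas and -0.31 for Gnb1. Whether depth has a part in this was not tested. Rapgef2 went with Gnb1 rather than with Gnas, at 0.23 and 0.43 in pan replicates 1 and 3 and at -0.23 and -0.042 in C1 replicates 3 and 4.

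**Figure D2:**
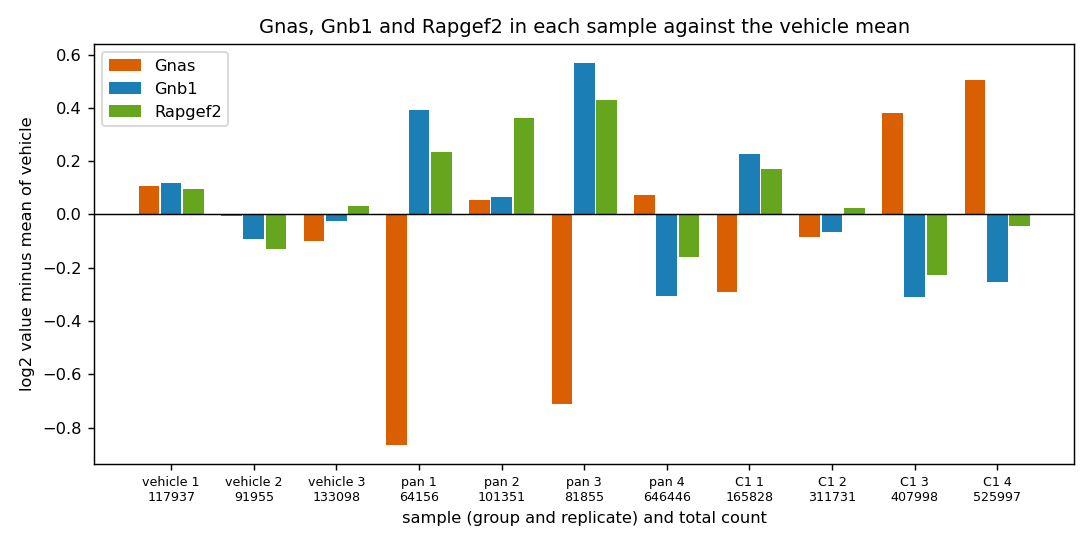
Log2 value of Gnas, Gnb1 and Rapgef2 in each sample minus the mean of the 3 vehicle samples (y axis), with the sample's total recovered count under its name. Gnas is at -0.86 and -0.71 in pan replicates 1 and 3, where Gnb1 is at 0.39 and 0.57, and the directions are opposite in C1 replicates 3 and 4.

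The genes with the pattern most like each subunit were found by the mean absolute difference of log2 values over the 11 samples, after each gene was centred on its own mean. For Gnb1 they were Cdc42, a small GTPase gene, at 0.0386 and Bcl2l1, which encodes an inhibitor of apoptosis, at 0.0434, against a mean absolute deviation of Gnb1 itself of 0.223. For Gnas they were Myd88, the adaptor of Toll-like receptors, at 0.106 and the transcription factor gene Maff at 0.107, against 0.295. For Gnaq they were the transcription factor gene Stat3 at 0.0527 and the focal adhesion kinase gene Ptk2 at 0.0570, against 0.111.

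Plcb1, a phospholipase C of the kind that Gq alpha activates, was close to the limit of measurement. It was at 10.0, 2.30 and 13.2 normalized counts with vehicle, which came from 5, 1 and 8 probe counts. The pan replicates had 12.98, 4.88, 8.69 and 9.75 from 4, 2, 3 and 31 counts, and the C1 replicates had 6.88, 10.5, 10.8 and 13.4 from 5, 15, 21 and 31 counts. Vehicle replicate 2 was the lowest sample, and the groups overlapped. As a log2 fold change the difference was 0.35 ± 0.62 (SE) in pan against vehicle, 0.59 ± 0.60 in C1 against vehicle and 0.24 ± 0.33 in C1 against pan (limma adjusted p = 0.889, 0.787 and 0.703). The interval of C1 against vehicle reached from 0.560-fold to 4.05-fold. Without vehicle replicate 2, both differences from vehicle turned direction, to -0.42 for pan and -0.18 for C1.

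Of the protein kinase C genes, Prkca was the steadiest of the 9 genes, with a pooled SD within groups of 0.13 on the log2 scale. It was at 218, 226 and 234 normalized counts with vehicle, at 227, 188, 249.2 and 211 with pan and at 227, 246, 201 and 231 with C1. Each treatment had samples below, within and above the vehicle range. The log2 fold change was -0.053 ± 0.21 (SE) in pan against vehicle and -0.0010 ± 0.13 in C1 against vehicle (limma adjusted p = 0.942 and 0.994). Its 95% interval in C1 against vehicle was 0.813-fold to 1.23-fold, among the narrowest of the set, and in C1 against pan 0.785-fold to 1.37-fold.

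Prkcb, which encodes a conventional isoform known from B cells and other leukocytes, had the lowest unadjusted p of the 9 genes in C1 against vehicle. It was at 370, 221 and 314 normalized counts with vehicle, at 347, 354, 290 and 188 with pan and at 235, 203, 201 and 223 with C1. Vehicle replicate 2 lay within the C1 range and pan replicate 4 below it, so the groups overlapped. In C1 against vehicle the log2 fold change was -0.46 ± 0.20 (SE), with an interval from -0.93 to 0.010, and it did not pass (limma unadjusted p = 0.0540, adjusted p = 0.452, exact permutation p = 0.171). In C1 against pan it was -0.41 ± 0.24 (limma adjusted p = 0.427) and in pan against vehicle -0.046 ± 0.31 (limma adjusted p = 0.945).

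Prkcb was also set out by the age label, although the study's methods do not match its higher range. The 5 samples labelled 22-24 months were at 188 to 235 normalized counts (median 203) and the 6 labelled 2-3 months at 221 to 370 (median 331), so only vehicle replicate 2 of the latter reached into the range of the former. The summed macrophage and myeloid markers were at 320 normalized counts in pan replicate 4 and reached their highest values in C1. The summed T cell markers were at 21.7 in pan replicate 4 and at 19.3, 26.6, 31.5 and 42.3 in C1 replicates 1 to 4, against 36.9 to 42.0 with vehicle and 19.5, 24.4 and 20.3 in pan replicates 1 to 3, and their part was not tested. For Rapgef2 the same split gave 1053 to 1387 (median 1197) and 1127 to 1658 (median 1382), and for Gnb1 11780 to 17102 (median 12243) and 13684 to 21647 (median 15565). With the age label as a covariate in a fit of all groups, where pan replicate 4 alone separates age from C1, the log2 fold change of C1 against vehicle turned to 0.35 for Prkcb and 0.55 for Gnb1 (limma adjusted p = 0.823 and 0.807). The age splits are given as values without a test, because they were drawn up after the values were seen and because C1 samples make up all but 1 of the older group. The 5 samples labelled 22-24 months had total counts of 165828 to 646446, and the 6 labelled 2-3 months 64156 to 133098. Age label and depth therefore cannot be told apart in these splits.

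**Figure D3:**
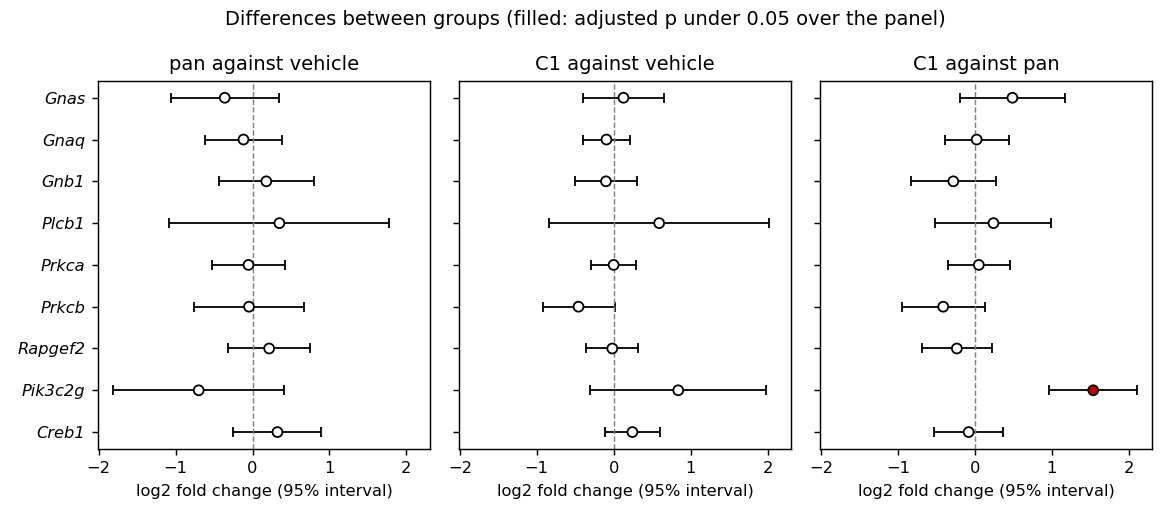
Log2 fold change (x axis) of each of the 9 genes with its 95% interval from limma in pan against vehicle, C1 against vehicle and C1 against pan. A filled point marks an adjusted p under 0.05, which only Pik3c2g in C1 against pan has, at 1.54, and the other intervals include 0.

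Rapgef2 encodes an exchange factor that activates the small GTPase Rap1, which links cAMP and Trk signalling to ERK in neurons. It was at 1317, 1127 and 1260 normalized counts with vehicle, at 1448, 1584, 1658 and 1103 with pan and at 1387, 1254, 1053 and 1197 with C1. Pan replicates 1 to 3 were above every vehicle and C1 sample, but pan replicate 4 was below every vehicle sample. On the log2 scale the difference was 0.22 ± 0.23 (SE) in pan against vehicle, -0.018 ± 0.14 in C1 against vehicle and -0.23 ± 0.20 in C1 against pan (limma adjusted p = 0.774, 0.945 and 0.602).

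Pik3c2g, a class II phosphoinositide 3-kinase gene, was the only gene of the set to pass a test. It was at 6.01, 2.30 and 9.87 normalized counts with vehicle, from 3, 1 and 6 probe counts. The pan replicates had 3.25, 2.44, 2.90 and 4.41, from 1, 1, 1 and 14 counts. The C1 replicates had 9.63, 7.71, 7.74 and 12.5, from 7, 11, 15 and 29 counts. All 4 C1 samples were above all 4 pan samples. The vehicle range, from 2.30 to 9.87, overlapped both groups, with C1 replicate 4 above it. In C1 against pan the log2 fold change was 1.54 ± 0.25 (SE), or 2.91-fold with an interval of 1.95 to 4.32 (limma adjusted p = 0.0487), and the exact two-sided permutation p of 0.0286 is the smallest that 4 against 4 samples can give. It did not pass against vehicle, at -0.70 ± 0.48 for pan (limma adjusted p = 0.577) and 0.84 ± 0.48 for C1 (limma adjusted p = 0.567).

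The call in C1 against pan stood close to its threshold and on few counts. Summed over samples, 62 counts in C1 against 17 in pan gave a ratio of 2.41 at the deposited scale, with an exact 95% interval of 1.39 to 4.41 that covers counting error only. With all 3 groups in one fit the log2 fold change was the same but the adjusted p was 0.175, and with values centred on the median of well-detected genes it was 1.40 with an adjusted p of 0.174. Of the 8 fits that each left out 1 sample, only the one without pan replicate 4 passed, at 1.70 (limma adjusted p = 0.0369), and without pan replicates 1 and 3 it was 1.49 (limma adjusted p = 0.371).

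To see how far such counts lie from background, both low genes were set beside 13 yardstick genes of the panel that are not expected in cornea. In 0 of the 11 samples was Pik3c2g or Plcb1 above all 13, while the other 7 members were above all of them in 11 of 11. Relative to the median of the yardstick genes in the same sample, the log2 value of Pik3c2g was at 0.81, 0.46, 0.10 and 0.47 with C1 and at 0.00, -1.0, 0.00 and -0.28 with pan. The yardstick genes were themselves higher in C1 than in pan in 11 of 13 cases, with a median log2 fold change of 0.52, and their summed counts gave a ratio of 1.33 (1.16 to 1.53, counting error only). The part of this background in the difference of Pik3c2g was not tested. The nearest patterns to Pik3c2g were those of the complement genes C8a, itself one of the yardstick genes, at 0.402, and C1qb at 0.411.

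**Figure D4:**
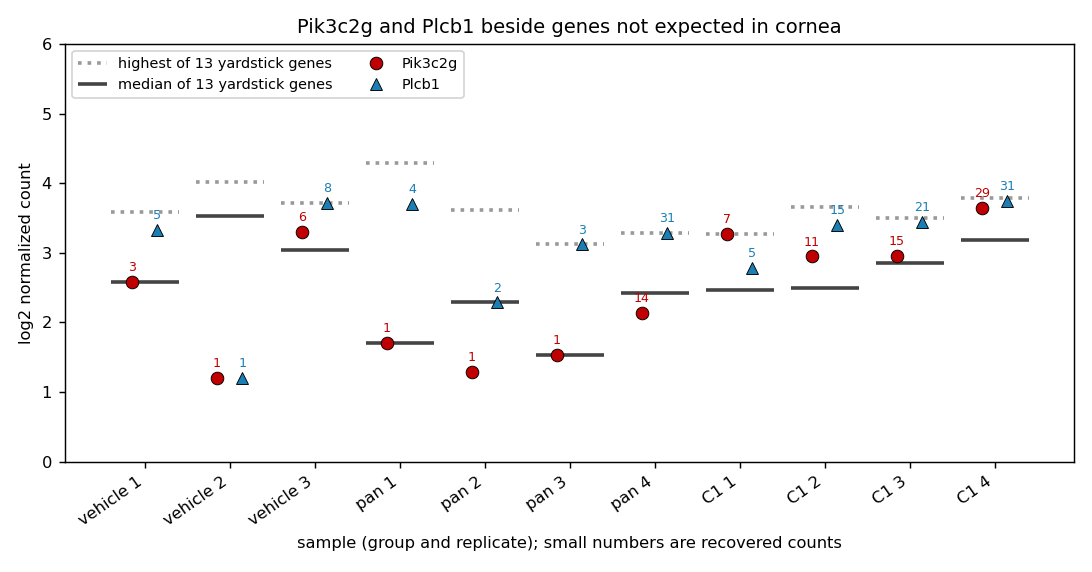
Log2 normalized count (y axis) of Pik3c2g and Plcb1 in each sample, with the recovered probe counts printed beside the points, and the median and the highest of 13 genes not expected in cornea as horizontal lines. Pik3c2g rests on 1 count in pan replicates 1 to 3 and is never above the highest yardstick gene.

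Creb1 was at 76.1, 73.8 and 57.6 normalized counts with vehicle. With pan it was at 90.9, 109.8, 69.5 and 78.4, and with C1 at 78.4, 75.7, 80.0 and 91.6. In each treatment 3 of 4 samples were above the highest vehicle sample, and the remaining one lay within the vehicle range. In pan against vehicle the log2 fold change was 0.32 ± 0.25 (SE), with an interval of -0.25 to 0.90, and 0.24 ± 0.15 in C1 against vehicle, with an interval of -0.12 to 0.61. Neither passed (limma adjusted p = 0.594 and 0.587; exact permutation p = 0.229 and 0.114). Both comparisons share the 3 vehicle samples, and between the treatments Creb1 differed by -0.081 ± 0.20 (limma adjusted p = 0.8292). Its nearest patterns were those of Rps6ka5, a kinase gene whose product phosphorylates Creb1, at 0.134 and of Myc at 0.140, against its own mean deviation of 0.163.

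The other genes of the pathway on the panel were counted by role. Of the 3 genes of Gs-coupled receptors, 0 passed in any comparison. Ptger4, the EP4 receptor gene, had the smallest p among them against vehicle, at a log2 fold change of 0.74 for pan and 0.85 for C1 (limma adjusted p = 0.239 and 0.211), and Ptgir, the prostacyclin receptor gene, in C1 against pan at 1.17 (limma adjusted p = 0.277). When the test was restricted to well-detected genes (mean log2 value 5 or more), Ptger4 passed in C1 against vehicle. The 5 Gq-coupled receptor genes had 0 calls in any comparison, and all 5 had negative values in pan against vehicle (median -0.89) and positive values in C1 against pan (median 0.78). None of the 5 reached a mean log2 value of 5, and the yardstick genes moved the same way, with medians of -0.67 and 0.52. The thromboxane receptor gene Tbxa2r was at -1.25 in pan against vehicle (limma adjusted p = 0.245), Ptger1 at 0.48 in C1 against vehicle (limma adjusted p = 0.469) and Ptgfr at 1.12 in C1 against pan (limma adjusted p = 0.256).

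The 13 Gi-coupled receptor genes, mostly chemokine receptors, also had 0 calls. In pan against vehicle 12 of 13 were negative and in C1 against vehicle 11 of 13, with medians of -0.51 and -0.31. The panel medians in these comparisons were -0.20 and -0.019. Of the 13 yardstick genes 9 and 8 were negative, with medians of -0.67 and -0.050. Ccr4, a chemokine receptor of T cells, had the smallest p in both, at -1.92 and -1.66 (limma adjusted p = 0.0912 and 0.371). In C1 against pan 11 of 13 were positive (median 0.26), beside a median of 0.23 over the panel and 11 of 13 positive among the yardstick genes, with Ccr7 at 0.73 (limma adjusted p = 0.277). Only 2 of the 13 reached a mean log2 value of 5.

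The 7 genes from Ras to ERK, all well detected, had 0 calls in each comparison and medians of -0.21, -0.020 and 0.21. Mapk3, which encodes ERK1, was at -0.48 in pan against vehicle and 0.34 in C1 against pan (limma adjusted p = 0.517 and 0.529), and Hras at -0.16 in C1 against vehicle (limma adjusted p = 0.720). Of the 6 genes for kinases that phosphorylate Creb1 and for related factors, 0 passed. Elk1, an ERK-regulated transcription factor gene, was at -0.49 in pan against vehicle and 0.56 in C1 against pan, and Mapkapk5 at -0.57 in C1 against vehicle (limma adjusted p = 0.550, 0.365 and 0.452).

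Of the 6 genes with cAMP-responsive promoters, 0 passed, and 3 of the 6 reached a mean log2 value of 5. In pan against vehicle 4 were positive and 2 negative (median 0.12), in C1 against vehicle 6 were positive (median 0.32) and in C1 against pan 5 were positive (median 0.35), beside panel medians of -0.20, -0.019 and 0.23. Areg, a ligand of the EGF receptor, was at 0.74 in C1 against vehicle and 0.55 in C1 against pan (limma adjusted p = 0.211 and 0.273), and Ptgs2, an inducible prostaglandin synthase, at -0.83 in pan against vehicle (limma adjusted p = 0.567). The 4 other signalling genes had 0 calls, with Gngt1, a G protein gamma subunit of photoreceptors, at -1.24, -0.42 and 0.81 in the 3 comparisons (limma adjusted p = 0.475, 0.787 and 0.365).

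Among the cell markers, the 9 macrophage and myeloid genes had 0 calls in any comparison, with 8 of 9 negative in pan against vehicle (median -0.49), 8 of 9 positive in C1 against vehicle (median 0.27) and 9 of 9 positive in C1 against pan (median 0.77, with C1qa at 0.77 and limma adjusted p = 0.256). The panel median in C1 against pan was 0.23, and the yardstick genes were positive in 11 of 13 cases with a median of 0.52. In pan against vehicle the panel median was -0.20, and 9 of 13 yardstick genes were negative, with a median of -0.67. H2-Eb1 was at -0.57 in pan against vehicle (limma adjusted p = 0.517) and C1qb at 0.45 in C1 against vehicle (limma adjusted p = 0.452). Of the 4 T cell markers 1 passed, Ifng, which was lower in pan than in vehicle by a log2 fold change of -2.40 (limma adjusted p = 0.00246), and it was at -1.54 in C1 against vehicle (limma adjusted p = 0.211). It had 6, 8 and 10 counts in the vehicle samples and 1, 1, 1 and 10 in the pan samples, so the fitted difference rests on counts that may stand for none. The summed counts gave a pan over vehicle ratio of 0.197 (0.0921 to 0.402, counting error only). Of the 4 T cell markers 3 were negative and 1 positive in pan against vehicle, the latter being Cd40lg at 1.14 (limma adjusted p = 0.239). None of the 4 reached a mean log2 value of 5. In pan replicates 1, 2 and 3, respectively, 4, 3 and 3 of them had at most 3 counts. Cd4 was at 1.44 in C1 against pan (limma adjusted p = 0.157). Of the 13 yardstick genes 1 passed, Mbl2, lower in pan than in vehicle at -1.59 (limma adjusted p = 0.0305), on 3, 5 and 6 counts in vehicle and 1, 1, 1 and 10 in pan. Il5 was at -1.04 in C1 against vehicle and C8a at 1.02 in C1 against pan (limma adjusted p = 0.452 and 0.256).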

How the data were processed

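RNA of 11 samples of mouse cornea was counted by the authors with NanoString nCounter, in which each transcript is hybridised to a barcoded probe without amplification. The deposited tables give log2 normalized counts of 248 genes. Per the paper's methods, the authors scaled the counts of each lane to its housekeeping probes with ROSALIND software. The paper's results section states that samples failing quality control were left out. The 3 vehicle columns were identical in both tables and were used once. The authors' own comparison columns (mean, fold change and p-values) were not used. Of the gene IDs 247 were found in RefSeq, and 3 whose ID names another gene than their symbol, Elk1 among them, were named by the symbol. Probe sequences and a genome were not used.

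Normalized counts in a sample lay within 0.01 of whole multiples of one step, from which counts were recovered. Since 0 genes were below 1 count, a limit of 3 counts was taken as that which a count of 0 allows. Intervals from counts cover counting error only.

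Each pair of groups was fitted with limma 3.58.1 (lmFit, eBayes) in R 4.3.3 on the deposited log2 values, without filter, pseudocount or covariate. P-values were adjusted by Benjamini-Hochberg over 248 genes, with a threshold of 0.05. The code was tested on simulated data. Exact permutation tests enumerated 35 or 70 splits (Python 3.11.15, numpy 2.4.6, scipy 1.17.1, pandas 2.3.3, matplotlib 3.10.9). Replicate numbers were not used to pair samples. The 9 genes and all lists were chosen with earlier results of these data known. The named genes are these 9 in every comparison, the genes of other lists with an adjusted p under 0.05, the gene of each list with the smallest p, and the 2 panel genes most like each of the 9. The lists were Gs-, Gq- and Gi-coupled receptors, Ras to ERK, kinases that phosphorylate Creb1 and related factors, genes with cAMP-responsive promoters, other signalling genes, macrophage and myeloid markers, T cell markers and 13 genes not expected in cornea. Some results of this rule are not reported here. Alternatives were 1 fit of all 3 groups, median centring, only well-detected genes (mean log2 value 5 or more), a floor of 20 normalized counts, the replicate number as a block, the age label as a covariate, voom weights from recovered counts and leaving out each sample. Leaving out pan replicates 1 and 3 was chosen after seeing the data.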

Additional observations from a re-analysis of the deposited data

Results flagged for a closer look

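Pik3c2g differed between the compounds in the direct test, with a log2 difference of 1.54 in C1 against pan (limma adjusted p = 0.0487). This was the only difference between groups of these 9 genes to be picked out. Pan replicates 1 to 3 had 1 count each, which may stand for none, and in 0 of the 11 samples was the gene above all 13 genes not expected in cornea. On such counts, 1.54 is a fitted value near background. The call was lost in one fit of all 3 groups, where the log2 fold change stayed at 1.54 (limma adjusted p = 0.175), and under most other alternatives. None of the 18 sets of 4 samples (each gene in pan and in C1) had a single sample far from the others by Dixon's test, where chance gives about 1 in 20.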

How the results depend on the processing

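In both comparisons with vehicle, 0 of the 9 genes passed an adjusted p of 0.05 under every alternative run. At an unadjusted p of 0.05, 1 passed in C1 against vehicle with median centring, well-detected genes, the floor, voom weights or without vehicle replicate 2 or 3. In those fits 18 to 28 panel genes passed. In pan against vehicle 1 passed without vehicle replicate 2, beside 19 panel genes. The next counts are by the adjusted p. In C1 against pan the count of 1, Pik3c2g, became 0 with all 3 groups in one fit, with median centring, with only well-detected genes (which leaves Pik3c2g out), with a floor of 20 normalized counts (which put Pik3c2g and Plcb1 at the floor in every sample and gave them no value), with the age label as a covariate, with voom weights and without pan replicates 1 and 3, and ranged from 0 to 1 when 1 sample was left out. The log2 fold change of Pik3c2g was 1.54, 1.40, 1.06, 1.15 and 1.49 in those of these alternatives that gave one (limma adjusted p from 0.174 to 0.993). With the replicate number as a block it was 1.54 (limma adjusted p = 0.0494). Leaving out 1 sample gave 1.39 to 1.70 (limma adjusted p from 0.0369 to 0.208).

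Same-numbered samples deviated together in only some pairs, so the numbers were not taken to pair them. With the replicate number as a block, 5, 0 and 1 panel genes passed in the 3 comparisons and Pik3c2g stayed at 1.54 (adjusted p = 0.0494), while Prkcb in pan against vehicle turned to 0.16. Against vehicle, the block fit leaves out pan replicate 4, which has no vehicle sample of its number. Leaving out that sample alone, or using the age covariate, gave the same 0.16 for Prkcb. The block changed no call of the 9 genes.

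The 5 panel genes called in pan against vehicle became 1 among well-detected genes, 2 with the floor, 9 with the age covariate and 0 without pan replicates 1 and 3, and ranged from 1 to 7 with 1 sample left out: 7 without vehicle replicate 1, 3 without pan replicate 2 or 3, 2 without pan replicate 1 or 4, and 1 without vehicle replicate 2 or 3. The 0 called in C1 against vehicle became 1 (Ptger4) among well-detected genes and was 0 to 0 with 1 sample left out, beside 26 at an unadjusted p of 0.05. The 1 called in C1 against pan became 0 in one fit, with median centring, the age covariate, voom weights or without pan replicates 1 and 3, and was 0 to 1 with 1 sample left out (Fasl without pan replicate 2, Pik3c2g without pan replicate 4). With the floor, and also among well-detected genes, the 1 called was Il15.

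Directions of values that did not pass turned as follows. Centring moved C1 against pan by 0.14 for all genes, and gave -0.12 for Gnaq and -0.087 for Prkca there, and 0.031 for Prkca and 0.038 for Prkcb in pan against vehicle. The age covariate gave 0.16 for Prkcb in pan against vehicle, -0.45 for Gnas, 0.16 for Gnaq, 0.55 for Gnb1, 0.058 for Prkca, 0.35 for Prkcb and 0.48 for Rapgef2 in C1 against vehicle, and 0.21 for Gnb1, 0.052 for Creb1, 0.19 for Prkcb and 0.14 for Rapgef2 in C1 against pan. Without pan replicates 1 and 3, pan against vehicle was 0.065 for Gnas and -0.12 for Gnb1, and C1 against pan -0.017 for Gnaq and 0.020 for Gnb1. Leaving out 1 sample gave ranges of -0.42 to 0.83 for Plcb1, -0.12 to 0.018 for Prkca and -0.25 to 0.16 for Prkcb in pan against vehicle, of -0.18 to 1.08 for Plcb1, -0.043 to 0.055 for Prkca and -0.083 to 0.051 for Rapgef2 in C1 against vehicle, and of -0.040 to 0.11 for Gnaq, -0.18 to 0.038 for Creb1, -0.029 to 0.44 for Plcb1 and -0.019 to 0.12 for Prkca in C1 against pan. The cause was not tested. Plcb1 and Pik3c2g have only 1 to 31 counts in a sample, and the part of depth in their values was not tested.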

Other observations

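Further nearest patterns of the members were, as the mean absolute difference of centred log2 values over 11 samples, Hmgn1 at 0.0970 and Hif1a at 0.111 for Prkca, against its own mean deviation of 0.0914. For Prkcb they were Mknk1, a kinase gene whose product is activated by ERK, at 0.128 and Tgfb1 at 0.150, against 0.327. For Plcb1 they were Defa29 at 0.406 and Ccl2 at 0.457, against 0.545. Thus 0 panel genes followed Prkca more closely than its own mean did.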
